A study of Mus musculus with 8 samples.

Results

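Oligodendrocytes, the myelin-forming cells of the brain, arise from precursor cells that pass through a short premyelinating stage. The 10 genes described here mark these early stages. They were taken by gene name from the 54532 genes of the deposited table, and all 10 were found. Pdgfra, Cspg4, Ptprz1, Vcan, Tnr, Lhfpl3 and C1ql1 form the 7 precursor genes, and Gpr17, Bcas1 and Enpp6 the 3 premyelinating genes.

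Ribosome profiling, which sequences the mRNA fragments shielded by ribosomes (footprints), had been done on tissue labelled brain and described as whole brain in the series' design text. The mice were 3-month-old males, 5 wild type (WT) and 5 Nsun5 knockout (Nsun5-KO, here KO), described as littermates, and no allele, promoter or Cre line is given for the knockout. Nsun5 encodes an enzyme that methylates a cytosine of ribosomal RNA, and the study asked how its loss affects the brain and sleep. There were 4 footprint libraries and 4 mRNA libraries of matching names per genotype. Which mouse gave which library is not labelled, and no batch is given, so each p-value rests on library-to-library spread that could be technical in part. WT and KO below always mean libraries labelled so.

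Total gene counts ran from 15.6 to 17.8 M (M, mega) in the mRNA libraries. The footprint libraries were far shallower, at 1.20 to 3.49 M counts in WT and 0.586 to 1.30 M in KO. Of these, protein-coding genes held 0.792 to 1.47 M in WT and 0.233 to 0.847 M in KO. Over all genes, a chi-square per degree of freedom between mRNA counts of WT libraries was 14.8 for WT1 and WT2, 8.88 for WT3 and WT4, and 20.5 to 26.9 across these pairs, so WT1 and WT2 stood apart from WT3 and WT4. Nsun5 mRNA was not lower in KO, with 82 to 109 counts per WT library and 83 to 124 per KO library (log2 fold change 0.12 ± 0.15 SE, edgeR adjusted p = 0.820). Gene-level counts do not show whether the deleted segment is read, so this value neither checks the labels nor goes against them. Gabra6 and Pcp2 are defining genes of cerebellar granule and Purkinje cells, named here after their values were seen. Against a label of whole brain, they had 34 and 31 mRNA counts over all 8 libraries. These counts were uneven between libraries: in WT, Gabra6 was at 0.51 ± 0.94 and Pcp2 at 0.33 ± 0.59 counts per mega (mean ± SD). In KO they were at 0.03 ± 0.04 and 0.15 ± 0.12. No gene of any kind passed the threshold of an adjusted p of 0.05 in edgeR's quasi-likelihood test. This held for 13058 genes tested in mRNA, 8476 in footprints and 9673 in translational efficiency, of which 1377, 468 and 1052 had an unadjusted p under 0.05. With DESeq2 the calls were 75, 4 and 144, and none of the 10 genes was among them.

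As background, oligodendrocyte precursors divide and migrate in response to platelet-derived growth factor A, which neurons and astrocytes supply and which Pdgfra receives. They carry and secrete chondroitin sulphate proteoglycans and other matrix proteins. On leaving the cycle they lose the receptor, switch on Gpr17, Bcas1 and Enpp6 for a limited time, and then begin to make myelin. Several of the precursor genes are not confined to precursors: Pdgfra is also made by meningeal fibroblasts, Cspg4 by pericytes, Ptprz1 by astrocytes, Tnr by some neurons and C1ql1 by neurons of the inferior olive. These are bulk tissue values, in which fewer cells of a type and less RNA per cell cannot be told apart.

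RefSeq promoter sequences (build GRCm38.p6, the 250 bases before the annotated start) were matched by symbol for 7 of the 10 genes, 6 precursor genes and Enpp6. They were searched on both strands for CAGCTG, an E-box form read by the basic helix-loop-helix factors that include Olig2, and for AACAAT, a core read by SOX factors. The motifs share no position. The promoters below are those of the defining receptor of precursors and of the only 2 genes with a match, whose matched letters are in capitals, all on the + strand and written 5′ to 3′. They lie at chr5:75152001-75152250 for Pdgfra, chr5:22745804-22746053 for Lhfpl3 and chr8:46986637-46986886 for Enpp6.
Pdgfra: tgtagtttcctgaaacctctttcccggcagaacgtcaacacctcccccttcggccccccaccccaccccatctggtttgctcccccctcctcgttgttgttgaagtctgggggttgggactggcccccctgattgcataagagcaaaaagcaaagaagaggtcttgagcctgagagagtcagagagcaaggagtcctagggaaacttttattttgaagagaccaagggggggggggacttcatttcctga
Lhfpl3: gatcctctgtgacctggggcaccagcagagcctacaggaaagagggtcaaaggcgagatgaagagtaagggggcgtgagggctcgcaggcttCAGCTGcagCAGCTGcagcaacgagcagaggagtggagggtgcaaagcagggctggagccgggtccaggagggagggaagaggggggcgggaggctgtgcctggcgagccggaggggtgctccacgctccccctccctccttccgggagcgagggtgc
Enpp6: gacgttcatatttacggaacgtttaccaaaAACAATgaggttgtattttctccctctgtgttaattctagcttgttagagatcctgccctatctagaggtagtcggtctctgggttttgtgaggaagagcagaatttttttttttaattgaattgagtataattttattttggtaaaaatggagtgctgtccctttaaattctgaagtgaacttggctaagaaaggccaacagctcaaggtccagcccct
Lhfpl3 held the E-box form at 158 and at 149 bases before its start, and 13.0% of 32851 promoters of the same length held it at least once. Enpp6 held the SOX core at 220 bases before its start, against 9.42% of all promoters. A match is a run of letters and not a shown binding site, and no match says only that these letters are not in the window.

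In mRNA, 9 of the 10 genes had a fitted level below WT in KO, all by small amounts, and none passed the test. Their log2 fold changes ran from −0.51 for C1ql1 to 0.05 for Cspg4, and adjusted p from edgeR was between 0.425 and 0.972. The share of genes below 0 was 51.4% over all 13058 genes tested. The median log2 fold change was −0.21 over the 7 precursor genes and −0.32 over the 3 premyelinating genes, against −0.005 over all genes tested. The share called at an adjusted p of 0.05 was 0% of all genes. At an unadjusted p under 0.05, 1 of the 10 genes, C1ql1, was lower, against a background of 5.22% of all genes lower. Only for Gpr17 did the 4 KO libraries all lie below the 4 WT libraries, against a background of 2.74% of all genes. With 10 genes, neither count stands clear of its background in this setting. The first count depends on the cut, since unadjusted p in edgeR was 0.0514 for Enpp6, 0.0518 for Pdgfra, 0.0551 for Gpr17 and 0.0624 for Bcas1. The count under 0.05 was 4 with DESeq2, 4 with upper quartile scaling, 5 with no filter and 0 without KO3. No share of all genes is given for those settings.

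**Figure D1:**
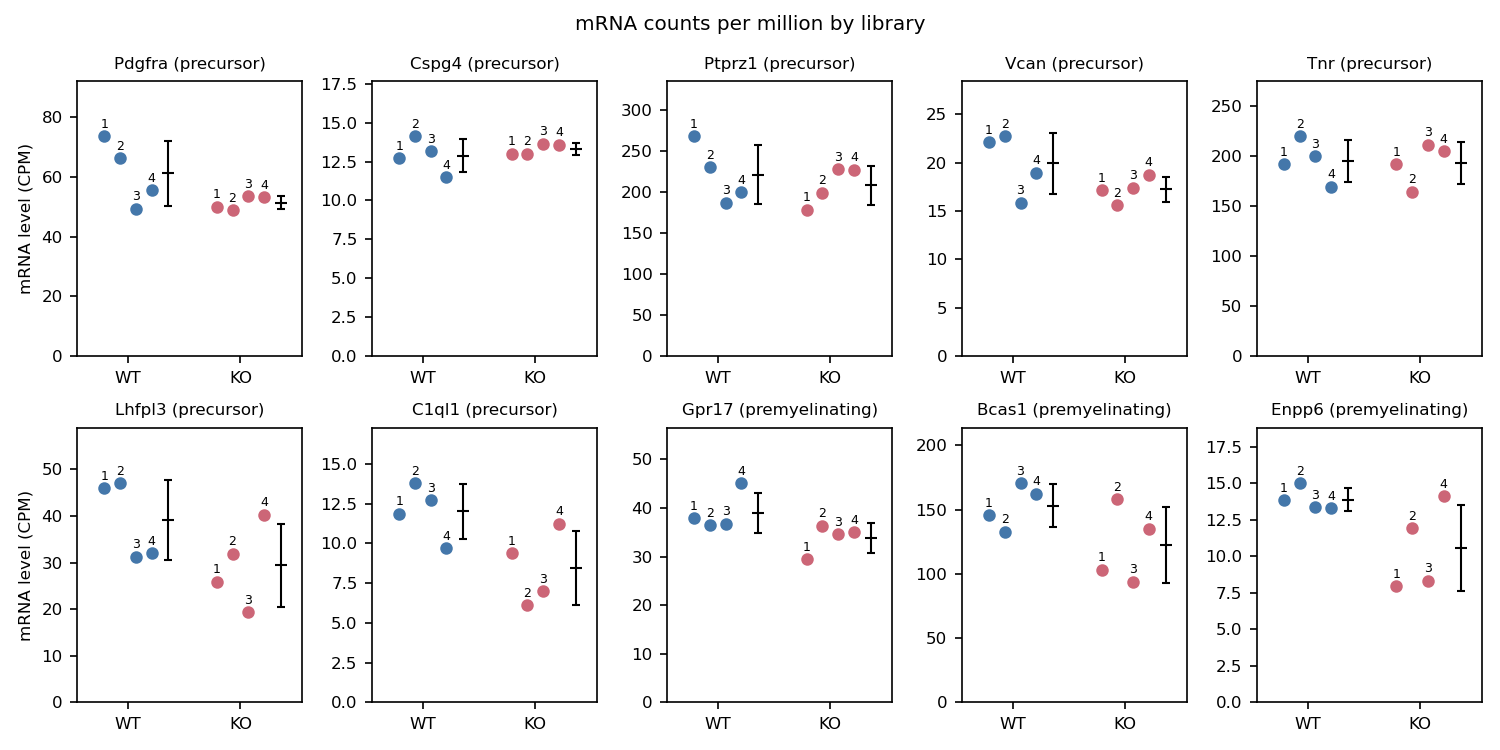
mRNA level of each of the 10 genes in CPM (counts per mega, scaled by TMM library size; vertical axes from 0), by library. Points are the libraries, numbered 1 to 4 within WT and KO, and black bars are the group mean ± SD. WT1 and WT2 are the highest points for Pdgfra, Ptprz1, Vcan and Lhfpl3, and KO1 and KO3 the lowest for Gpr17, Bcas1 and Enpp6.

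Pdgfra, the receptor for platelet-derived growth factor A that defines the precursor cell (chr5:75152292-75198215, + strand, mm10), had mRNA levels of 73.6, 66.3, 49.4 and 55.6 CPM (counts per mega, scaled by TMM library size) in WT1 to WT4. The KO libraries held 50.1, 48.9, 53.7 and 53.1 CPM. WT1 and WT2 stood above the other 6 libraries, and WT3 and WT4 were close to KO. The fitted log2 fold change was −0.25 ± 0.11 (SE, n = 4 libraries per group, edgeR adjusted p = 0.476). Without WT1 it was −0.15, and without WT1 and WT2 −0.03. The summed level of 7 fibroblast marker genes was also highest in WT1, at 121 CPM, but the sums in WT2, WT3 and WT4, 74.1, 75.6 and 50.6 CPM, lay inside the KO range of 47.2 to 76.5 CPM. All 5 of those tested were lower in KO, by a median of −0.41 on the log2 scale (Lum −0.76, Col1a1 −0.41). None was at 0, and their part in the Pdgfra values was not tested.

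Cspg4 encodes NG2, the surface proteoglycan by which precursors are stained (chr9:56865033-56899870, + strand). Its mRNA was at 12.7, 14.1, 13.2 and 11.5 CPM in WT and 13.0, 13.0, 13.7 and 13.6 CPM in KO. The KO libraries all lay inside the WT range. The fitted change was 0.05 ± 0.10 on the log2 scale, with a 95% interval of −0.17 to 0.26, and it was the only fitted value above 0 among the 10 genes. Of the pericyte markers, which share Cspg4, 2 of 4 tested were lower and 2 higher. Their sum was 190 to 221 CPM in WT and 189 to 232 CPM in KO, with none at 0.

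Among the matrix and proteoglycan genes, Ptprz1, a receptor phosphatase that carries chondroitin sulphate and binds pleiotrophin (chr6:22875502-23052916, + strand), was at 267, 230, 187 and 199 CPM in WT. In KO it was at 178, 199, 227 and 227 CPM. Again WT1 and WT2 were the highest libraries and the other WT libraries fell inside the KO range. The log2 fold change was −0.09 ± 0.12 (edgeR adjusted p = 0.839), and it was 0.11 without WT1 and WT2. Of the 8 astrocyte markers, which share Ptprz1, 4 were lower and 4 higher (Slc1a2 0.09, Fgfr3 0.07), with sums of 3840 to 4500 CPM in WT and 4130 to 4680 CPM in KO.

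Vcan, the secreted proteoglycan versican (chr13:89655312-89742509, − strand), was at 22.2, 22.7, 15.9 and 19.0 CPM in WT and 17.2, 15.6, 17.4 and 18.8 CPM in KO. The same pair of WT libraries was the highest. Its log2 fold change of −0.21 ± 0.12 (edgeR adjusted p = 0.575) became −0.02 without that pair. Tnr, the matrix glycoprotein tenascin-R (chr1:159523769-159931729, + strand), was at 192, 220, 200 and 169 CPM in WT and 192, 165, 211 and 205 CPM in KO. The Tnr groups covered nearly the same range, and its log2 fold change was −0.01 ± 0.10 (95% interval −0.23 to 0.20).

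Lhfpl3, a tetraspan membrane protein of the lipoma HMGIC fusion partner-like family (chr5:22746059-23275597, + strand), was at 46.1, 47.1, 31.3 and 32.0 CPM in WT. Its KO levels of 26.0, 31.9, 19.4 and 40.3 CPM were spread more widely than those of any other precursor gene relative to their mean. WT1 and WT2 were highest, KO3 and KO1 lowest, and KO4 lay above 2 WT libraries. The log2 fold change of −0.41 ± 0.22 (edgeR adjusted p = 0.538) was −0.11 without WT1 and WT2 and −0.25 without KO3.

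C1ql1, a secreted C1q-like protein that binds the adhesion receptor Adgrb3 (chr11:102939264-102946688, − strand), had mRNA levels of 11.9, 13.8, 12.7 and 9.70 CPM in WT. In KO they were 9.38, 6.12, 6.98 and 11.2 CPM. Of the KO libraries, 3 lay below every WT library and KO4 lay among them. Its log2 fold change of −0.51 ± 0.20, or 0.702 times the WT level, was the largest in size of the 10 (edgeR adjusted p = 0.425). It stayed at −0.41 without WT1 and WT2. Of 6 genes listed for the cerebellum and inferior olive, where neurons make C1ql1, 3 were tested and all 3 were lower (Cbln1 −0.69, Zic1 −1.19, Zic2 −0.63). The sum over the list was 67.0 to 119 CPM in WT and 40.6 to 56.3 CPM in KO. It was carried by these 3 genes, since Gabra6, Pcp2 and Cbln3 had only 34, 31 and 130 counts over all libraries, so it is no measure of cerebellar tissue. Its part in the C1ql1 values was not tested.

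The premyelinating genes followed another order of libraries. Gpr17, a G protein-coupled receptor made by committed precursors and lost before myelination (chromosome 18), was at 37.9, 36.5, 36.8 and 45.2 CPM in WT and 29.5, 36.4, 34.6 and 35.0 CPM in KO. The highest KO library and the lowest WT library, KO2 and WT2, were practically equal, from 619 and 568 counts. On the authors' RPKM scale they changed places, at 7.002 in KO2 and 6.935 in WT2, so the groups overlapped there. The log2 fold change was −0.21 ± 0.10 (edgeR adjusted p = 0.483). It was −0.28 without WT1 and WT2, −0.13 without WT4, the highest library, and −0.15 without KO1, the lowest.

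Bcas1, a cytoplasmic protein of early myelinating oligodendrocytes that also persists in myelin (chr2:170346991-170427845, − strand), was at 146, 133, 171 and 162 CPM in WT. In KO it was at 103, 158, 94.1 and 135 CPM. KO1 and KO3 fell below every WT library, while KO2 and KO4 lay within the WT range. Its log2 fold change was −0.32 ± 0.15 (edgeR adjusted p = 0.495), and −0.21 without KO3. Enpp6, a phosphodiesterase used as a marker of newly forming oligodendrocytes (chr8:46986887-47096762, + strand), was at 13.9, 15.02, 13.4 and 13.3 CPM in WT, with little spread. Its KO levels were 7.94, 11.9, 8.34 and 14.1 CPM, with KO1 and KO3 again lowest and KO4 inside the WT range. The log2 fold change was −0.39 ± 0.18 (edgeR adjusted p = 0.475), the largest in size of the 3.

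The precursor and premyelinating genes thus differed in which libraries were most often the highest or the lowest. WT1 and WT2 were the 2 highest of the 8 mRNA libraries for 4 of 7 precursor genes (Pdgfra, Ptprz1, Vcan and Lhfpl3), for none of the 3 premyelinating genes, and for 11.7% of all 13058 genes tested. KO1 and KO3 were the 2 lowest for 1 of 7 precursor genes (Lhfpl3), for all 3 premyelinating genes, and for 6.47% of all genes. The library pairs were singled out after the values were seen, so these are descriptions. Some places were close: Ptprz1 was at 230 CPM in WT2 and 227 CPM in KO3 and KO4. Gpr17 was at 34.6 CPM in KO3 and 35.0 CPM in KO4, and its log2 fold change was −0.21 with and without KO3. Without WT1 and WT2, the median log2 fold change of the precursor genes was −0.02 and that of the premyelinating genes −0.33. Without KO3 both medians were −0.21, and without KO1 they were −0.21 for the precursor and −0.24 for the premyelinating genes.

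A level for each group of genes in each library was taken as the mean log2 CPM of its members. For the precursor genes it was 5.59, 5.63, 5.32 and 5.28 in WT and 5.21, 5.14, 5.19 and 5.44 in KO. These ranges overlapped, through KO4, and the means differed by −0.21. For the premyelinating genes it was 5.41, 5.39, 5.46 and 5.53 in WT and 4.86, 5.36, 4.92 and 5.35 in KO. Here all KO libraries lay below all WT libraries, KO2 and KO4 only just and KO1 and KO3 by far, and the means differed by −0.33. Among these genes only Gpr17 separated in CPM, while Bcas1 and Enpp6 overlapped. No background share was taken for such a level. The precursor level minus the premyelinating level was 0.18, 0.24, −0.14 and −0.25 in WT and 0.35, −0.23, 0.27 and 0.10 in KO. The 2 ranges overlapped almost fully, so these libraries show no shift of one gene group against the other that exceeds the spread between them. The difference between the means was 0.12, with an SD of 0.24 in WT and 0.26 in KO. The sign of this difference turned to −0.23 when a library's level was the median of its genes in place of their mean.

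**Figure D2:**
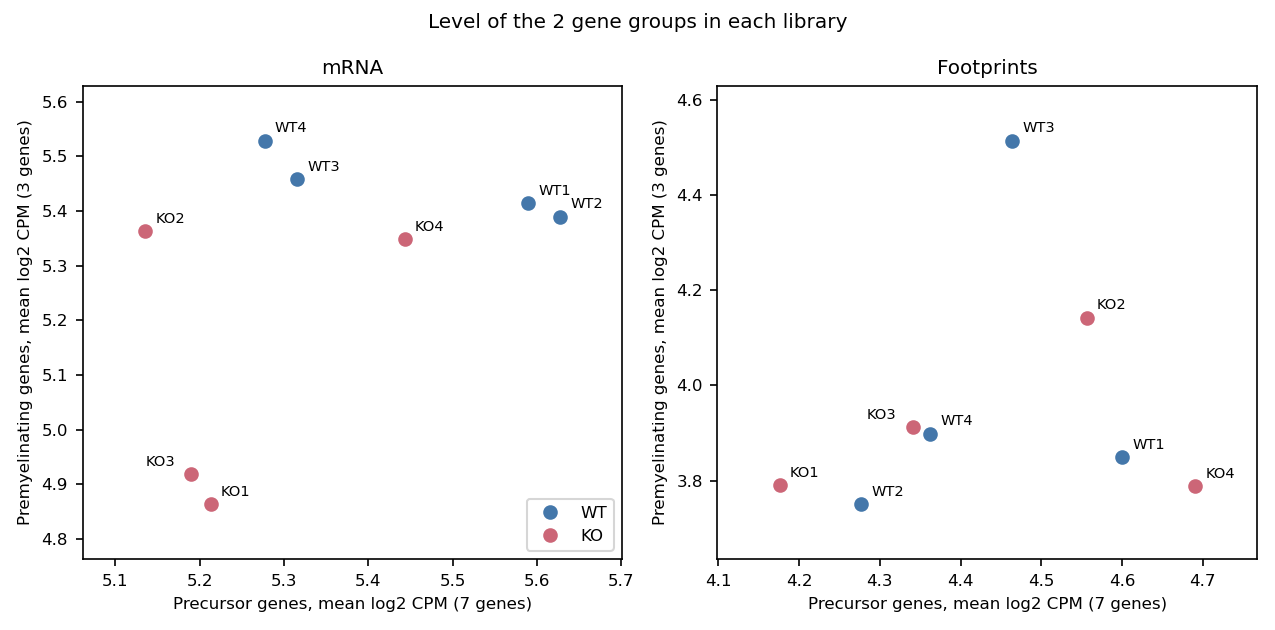
Mean log2 CPM of the 7 precursor genes (horizontal axis) and of the 3 premyelinating genes (vertical axis) in each library, for mRNA on the left and footprints on the right. Each point is 1 library. In mRNA, WT1 and WT2 lie to the right, KO1 and KO3 lie at the bottom, and all 4 KO points are below the WT points on the vertical axis. In footprints the groups are mixed on both axes.

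The premyelinating genes shared their lowest libraries with 12 genes of mature oligodendrocytes. All 12 had a log2 fold change below 0, with a median of −0.42, against 51.4% of all genes below 0. Of the 12, 11 had an unadjusted p under 0.05 in edgeR (Mal −0.47, Mobp −0.43), though none passed the threshold. The share of all genes lower at that unadjusted p was 5.22%. KO1 and KO3 were the 2 lowest libraries for all 12, against 6.47% of all genes. WT1 and WT2 were the 2 highest for 4 of these 12 (Mobp, Ermn, Ugt8a and Aspa), against 11.7% of all genes. That order was thus not confined to precursor genes. Their summed level was 7270 to 7930 CPM in WT, and 4860, 6470, 4690 and 6270 CPM in KO1 to KO4, with none at 0. The part of mature cells in the Bcas1, Gpr17 and Enpp6 values was not tested.

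Further genes of the same stages had medians closer to 0, though the fitted change of Nkx2-2 was larger in size than that of any of the 10 genes. Of 13 further precursor genes tested, 10 were below 0 and 3 above, with a median log2 fold change of −0.09. The lowest unadjusted p values belonged to Sox10, a factor kept through the lineage, at −0.49 ± 0.12, and to the sialidase gene Neu4, at −0.47 ± 0.14 (edgeR adjusted p = 0.337 for both). Of 10 further genes of newly formed cells, 8 were below 0, with a median of −0.08. Nkx2-2, a factor that promotes differentiation, was at −0.70 ± 0.23 and the hyaluronidase gene Tmem2 at −0.28 ± 0.14 (edgeR adjusted p = 0.372 and 0.498). None of these genes passed the test.

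Ligands and matrix partners of the 10 genes showed no common direction, with 5 of 12 tested below 0 and a median log2 fold change of 0.02. The Pdgfra ligands Pdgfa, Pdgfb and Pdgfc were at −0.02 ± 0.07, 0.23 ± 0.14 and 0.08 ± 0.23. The Ptprz1 ligands pleiotrophin (Ptn) and midkine (Mdk) were at 0.06 ± 0.08 and −0.14 ± 0.22, and its neuronal partner contactin (Cntn1) was at 0.01 ± 0.08. Among the proteoglycans related to Vcan, Bcan was at 0.04 ± 0.09 and Ncan at 0.19 ± 0.09. The C1ql1 receptor Adgrb3 was at −0.05 ± 0.08. The hyaluronan link proteins differed in direction: Hapln2, made by oligodendrocytes at nodes of Ranvier, was at −0.49 ± 0.14, Hapln1 at −0.06 ± 0.12, and Hapln4, of perineuronal nets, at 0.36 ± 0.14. Acan, a proteoglycan of perineuronal nets, was under the RPKM minimum and not tested, at 3.38 ± 0.60 CPM in WT and 3.07 ± 0.37 CPM in KO (SD). The unadjusted p values of the link proteins were 0.00512, 0.619 and 0.0243, and no adjusted p was under the threshold in edgeR.

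Markers of brain regions and of other cells also differed in mRNA, without any gene passing the threshold. All 6 neuronal genes were above 0 (median log2 fold change 0.16, Snap25 0.36), with sums of 5340 to 5790 CPM in WT and 6260 to 6780 CPM in KO. All 7 cortical genes were above 0 too (median 0.47), with sums of 356 to 603 CPM in WT and 526 to 713 CPM in KO. All 6 hypothalamic genes tested were below 0 (median −3.41, Gal −2.19), with sums of 4.42 to 137 CPM in WT and 3.06 to 12.4 CPM in KO. WT1 and WT2 held the highest hypothalamic sums, 137 and 92.0 CPM. All 7 choroid plexus and ependymal genes were below 0 (median −0.94, Ccdc153 −1.71), with sums of 324 to 1160 CPM in WT and 59.5 to 1170 CPM in KO. Of 6 microglial genes, 4 were below 0 (median −0.07, P2ry12 −0.23), with sums of 311 to 333 CPM in WT and 298 to 316 CPM in KO. No marker in these lists was at 0 in all libraries, and the part of tissue makeup in the values of the 10 genes was not tested.

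Across the 8 mRNA libraries, the genes whose log2 CPM followed Pdgfra most closely among 13048 others were Tmem183a, Camk2d and Capns1, with a Pearson r of 0.986, 0.981 and 0.980. For Gpr17 they were Agtrap, Wdr25 and Churc1, with an r of 0.961, 0.933 and 0.926. The 2 sets share no gene. With 8 libraries, 2 genotypes and common library totals, these are descriptions of likeness only.

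Per length, the level of the 10 genes in WT mRNA spanned a wide range. In the authors' RPKM (reads per kilobase, scaled by an adjusted library size), Bcas1 was highest at 40.04 ± 4.45 (SD, n = 4). Ptprz1 followed at 15.3 ± 2.46, Tnr at 14.99 ± 1.57 and Lhfpl3 at 12.02 ± 2.64, and neighbours among these 3 overlapped within 1 SD. C1ql1 at 8.06 ± 1.15, Gpr17 at 7.43 ± 0.81 and Pdgfra at 6.03 ± 1.06 overlapped in the same way. Enpp6 at 2.14 ± 0.12 stood alone, and Vcan at 1.36 ± 0.22 and Cspg4 at 1.07 ± 0.09 were lowest and overlapped. In WT footprints the order began with Ptprz1 at 10.7 ± 1.78, Tnr at 6.77 ± 0.60 and Bcas1 at 6.27 ± 1.44, and ended with Vcan at 0.918 ± 0.43.

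The ratio of footprint to mRNA RPKM in WT, in which gene length cancels, had a median of 0.461 over 9669 genes. Cspg4 had the highest of the 10, at 1.46, above 97.4% of genes, and its 4 WT libraries gave 1.03 to 1.82. Bcas1, Lhfpl3 and C1ql1 were at 0.157, 0.138 and 0.133, above only 6.31%, 4.75% and 4.33% of genes. The library values were 0.135 to 0.180 for Bcas1 and 0.0892 to 0.191 for Lhfpl3, both below the lowest value among the 7 genes other than C1ql1, 0.272 in Gpr17. For C1ql1 they ran from 0.0218 to 0.278, from 17 WT footprint counts in all. Tnr at 0.452 and Gpr17 at 0.442 were near the median, and Pdgfra at 0.577, Enpp6 at 0.624, Vcan at 0.674 and Ptprz1 at 0.700 were above it. The counting step is not given in the sources used here, and the same gene length served both kinds of library. The translated share of each transcript was not taken into account. The ratio and its order between genes are therefore descriptions and not measures of ribosomes per mRNA.

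**Figure D3:**
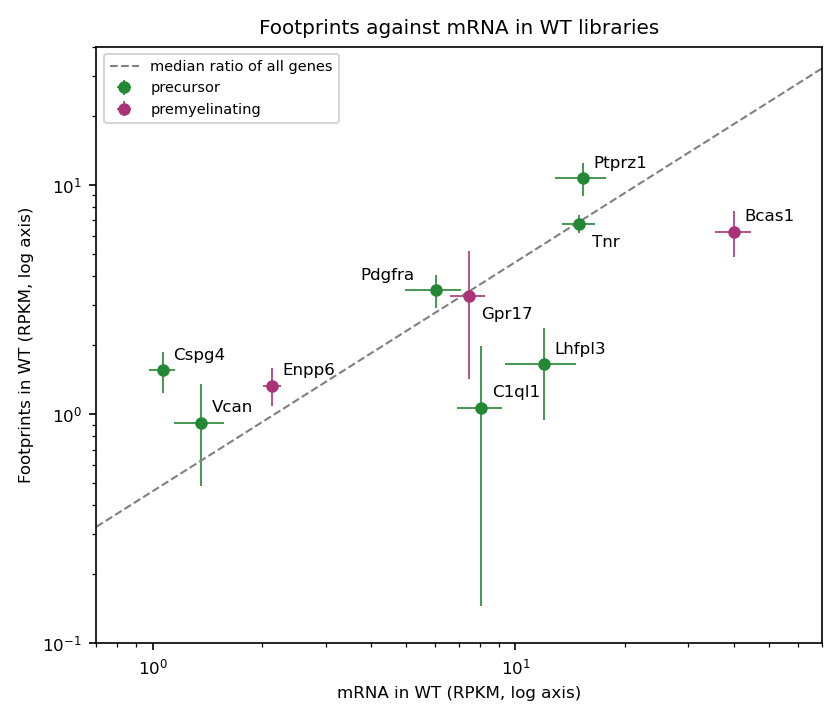
Footprint RPKM against mRNA RPKM of the 10 genes in WT (both axes logarithmic), as means of 4 libraries with SD bars. The dashed line is the median footprint to mRNA ratio of all genes, 0.461. Cspg4 lies above the line, and Bcas1, Lhfpl3 and C1ql1 lie well below it.

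In footprints the 10 genes gave no common direction. Of 8 with enough counts for the test, 4 were below 0 and 4 above, and edgeR adjusted p was between 0.881 and 0.996. The median log2 fold change was −0.17 over 5 precursor genes and 0.01 over the 3 premyelinating genes, against −0.004 over all 8476 genes tested. The share called at an adjusted p of 0.05 was again 0%. None of the 8 was lower at an unadjusted p under 0.05 (background 2.64%), and none had KO libraries all below WT (background 2.04%). Standard errors were wide, from 0.16 for Tnr to 0.42 for Vcan, and all 8 intervals contained 0. The 8 genes had between 134 and 2348 footprint counts over all libraries, and whether depth or spread between libraries set the width was not tested.

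**Figure D4:**
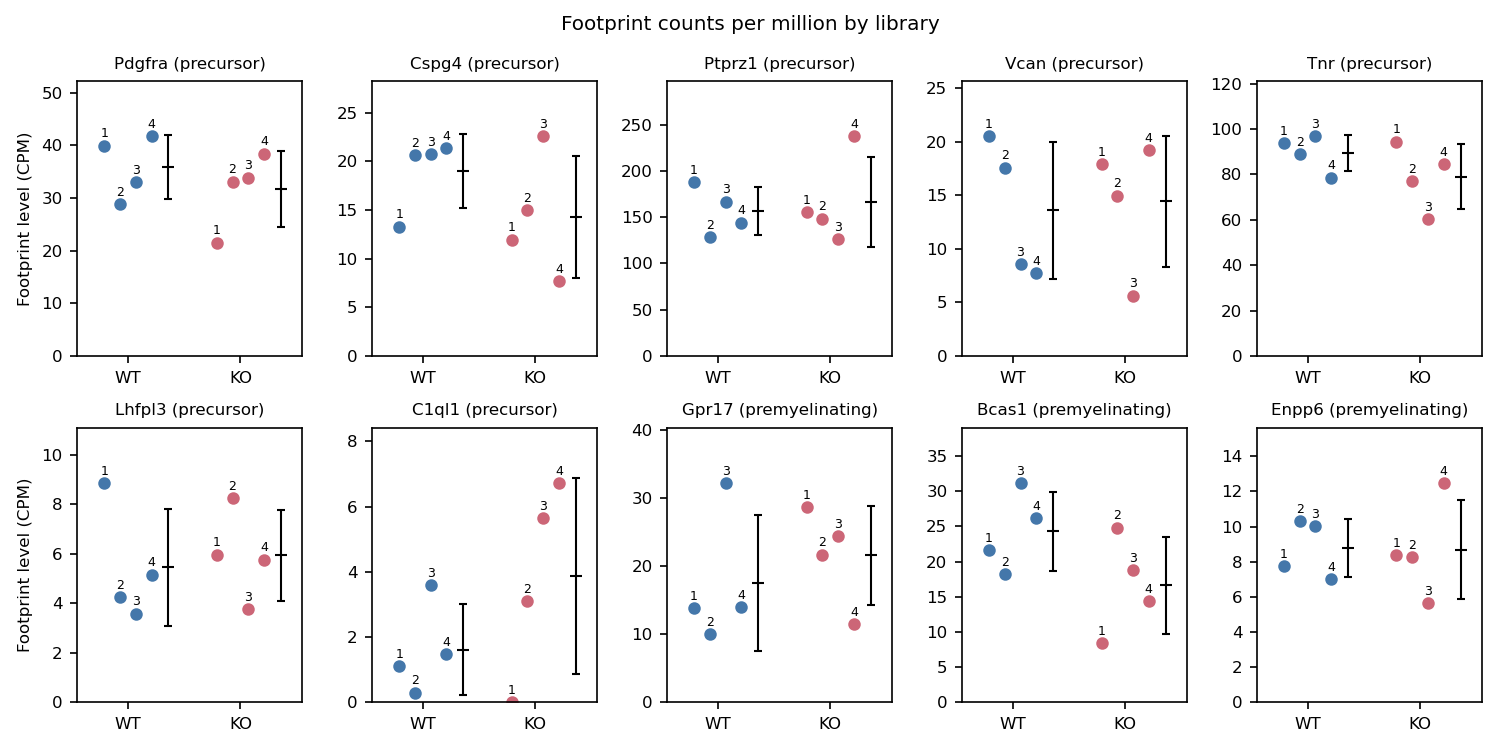
Footprint level of each of the 10 genes in CPM (vertical axes from 0), by library. Points are the libraries, numbered 1 to 4 within WT and KO, and black bars are the group mean ± SD. The groups overlap for every gene, and C1ql1 is at 0 in KO1.

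Pdgfra footprints were at 39.9, 28.8, 33.0 and 41.7 CPM in WT and 21.5, 33.1, 33.9 and 38.4 CPM in KO. Only KO1 lay outside the WT range, below it, and WT1 and WT2 did not stand above the rest as they did in mRNA. Its fitted log2 change was −0.17 ± 0.22. Cspg4 footprints were at 13.3, 20.6, 20.8 and 21.4 CPM in WT and 11.95, 14.98, 22.6 and 7.68 CPM in KO. WT1 lay low within its group, and the KO libraries, from 59 counts in all, covered the whole range. The log2 fold change of −0.48 had an SE of 0.34, and it was −0.26 without KO4.

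Ptprz1 footprints were at 188, 128, 167 and 144 CPM in WT and 155, 148, 126 and 237 CPM in KO, with both extremes in KO. Vcan footprints were at 20.5, 17.6, 8.60 and 7.75 CPM in WT and 17.9, 14.98, 5.64 and 19.2 CPM in KO. For Vcan, WT1 and WT2 were above WT3 and WT4 in footprints as in mRNA. Tnr footprints were at 93.7, 88.9, 96.7 and 78.6 CPM in WT and 94.4, 77.0, 60.2 and 84.5 CPM in KO, with the groups overlapping. The log2 fold changes were 0.10 ± 0.20 for Ptprz1, 0.16 ± 0.42 for Vcan and −0.17 ± 0.16 for Tnr.

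Lhfpl3 and C1ql1 had too few footprints for the test, 83 and 33 counts over all 8 libraries. Lhfpl3 was at 8.87, 4.25, 3.58 and 5.17 CPM in WT and 5.98, 8.27, 3.76 and 5.76 CPM in KO, with every KO library inside the WT range. C1ql1 footprints numbered 2, 1, 10 and 4 across WT1 to WT4, and 0, 6, 3 and 7 across KO1 to KO4. The count of 0 in KO1 allows up to 3 counts, or 3.59 CPM, which is no lower than any of the 4 WT values.

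Gpr17 footprints were at 13.9, 10.02, 32.2 and 14.0 CPM in WT and 28.7, 21.7, 24.5 and 11.5 CPM in KO. The order was not that of mRNA: WT3 was the highest library and 3 KO libraries lay above the other 3 WT libraries. On the log2 scale the fitted change was 0.27 ± 0.40. It was −0.13 without WT1 and WT2 and 0.77 without WT3, and leaving out 1 library at a time gave 0.07 to 0.77. Bcas1 footprints were at 21.6, 18.2, 31.2 and 26.2 CPM in WT and 8.37, 24.8, 18.8 and 14.4 CPM in KO. KO1 and KO4 lay below every WT library, and the log2 fold change was −0.50 ± 0.32 (edgeR adjusted p = 0.881). It was −0.28 without KO1 and −0.84 without KO2. Enpp6 footprints were at 7.76, 10.3, 10.03 and 7.01 CPM in WT and 8.37, 8.27, 5.64 and 12.5 CPM in KO, from 95 and 39 counts. The Enpp6 groups overlapped fully, with a log2 fold change of 0.01 ± 0.36.

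The group levels in footprints, as mean log2 CPM, were 4.28 to 4.60 in WT and 4.18 to 4.69 in KO for the precursor genes. For the premyelinating genes they were 3.75 to 4.51 in WT and 3.79 to 4.14 in KO. Their difference ran from −0.05 to 0.75 in WT and from 0.39 to 0.90 in KO, so all 3 measures overlapped between genotypes. Of the 12 mature oligodendrocyte genes, 10 were below 0 in footprints, with a median of −0.33 on the log2 scale and sums of 2550 to 3040 CPM in WT and 1790 to 2290 CPM in KO. Neuronal, cortical and hypothalamic markers ran opposite to their mRNA. Choroid plexus and ependymal genes did not reverse in this way: of 2 tested, 1 was below 0 and 1 above (median −0.205). All 6 neuronal genes were below 0 (median −0.13), with sums of 3630 to 4980 CPM in WT and 3400 to 3770 CPM in KO. Of the 7 cortical genes, 6 were below 0 (median −0.29), with sums of up to 379 CPM in WT and 216 to 293 CPM in KO, each KO sum below each WT sum. The 2 hypothalamic genes tested were above 0 (median 1.60), with sums of 5.16 to 69.3 CPM in WT and 65.8 to 116 CPM in KO. The part of these differences in the footprint values of the 10 genes was not tested.

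**Figure D5:**
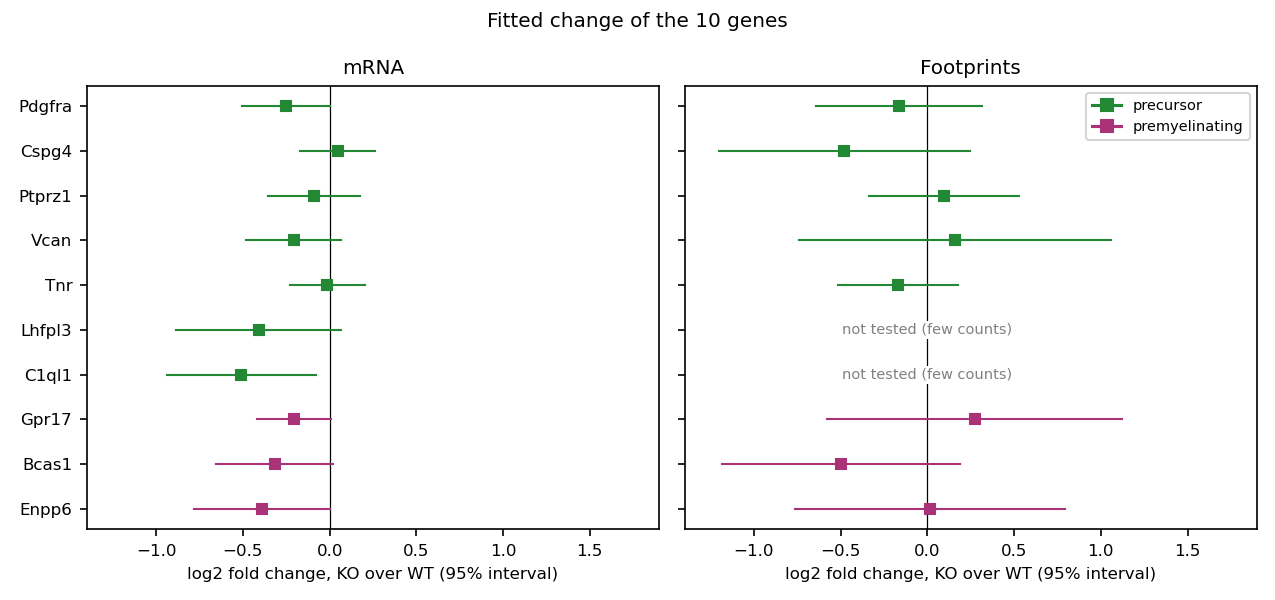
Fitted log2 fold change of KO over WT for the 10 genes (squares) with 95% intervals (lines) from edgeR, in mRNA on the left and in footprints on the right. In mRNA 9 of 10 squares lie left of 0, and only the C1ql1 interval lies clear of it. The footprint intervals are wider and all contain 0, and Lhfpl3 and C1ql1 were not tested there.

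Translational efficiency, the change in footprints relative to mRNA, was tested for 9 of the 10 genes as an interaction in 1 model. In it, 1 estimate of spread per gene served both kinds of library, although the median SE was 0.294 in footprints and 0.108 in mRNA. The SE and p-values here can therefore be too small. For Cspg4 and Gpr17 the SE was 0.318 and 0.376, below the 0.335 and 0.396 of footprints alone. It was above that of footprints for Pdgfra, Ptprz1, Tnr, Bcas1 and Enpp6. Vcan was left out because its mean footprint RPKM was under 1. None of the 9 passed, against 0% of all 9673 genes tested, and 6 of 9 were above 0. At an unadjusted p under 0.05, 1 gene, C1ql1, was higher, against a background of 5.30% of all genes higher. Its log2 value of 1.72 ± 0.76 (edgeR adjusted p = 0.416) rests on 33 footprint counts. It was 0.95 without WT1 and WT2, and 1.22 to 2.52 with 1 library left out at a time, highest without WT3. Lhfpl3, the other precursor gene with few footprints, was at 0.77 ± 0.51. The better counted precursor genes were near 0, with Pdgfra at 0.11 ± 0.24, Ptprz1 at 0.21 ± 0.23 and Tnr at −0.13 ± 0.19, and Cspg4 was at −0.54 ± 0.32. The premyelinating genes were at 0.48 ± 0.38 for Gpr17, −0.12 ± 0.33 for Bcas1 and 0.42 ± 0.39 for Enpp6. WT3, the library with the most Gpr17 footprints, weighed on the Gpr17 value, which was 1.01 without it (edgeR adjusted p = 0.215) and 0.26 to 1.01 with 1 library left out at a time. With all libraries, adjusted p for these 8 genes was between 0.558 and 0.937 in edgeR.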

How the data were processed

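Footprint and mRNA libraries of 4 WT and 4 KO samples were analysed from the deposited tables. The deposited gene table holds raw, whole-number counts of both kinds for genes on build mm10. RPKM values were made by the authors, and dividing the deposited counts by gene length and RPKM gives 1 library size per column. In footprints this size was not the count total and lay close to the TMM library size. The submitters' processing notes name TopHat2 and mm10 only, so the counting program, its strand setting and the annotation release are not given in the sources used here.

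Counts were fitted in R 4.3.3 with edgeR 4.0.16, by its quasi-likelihood test of KO against WT after TMM scaling, and p was adjusted by Benjamini-Hochberg over all genes tested. Genes entered the mRNA test at a mean RPKM of at least 1, the footprint test through filterByExpr with a minimum count of 10, and the translational efficiency test, an interaction of genotype and kind of library, when the mean RPKM reached 1 in each kind. SE is the log2 fold change divided by the square root of the quasi-likelihood F. CPM uses the TMM library size, and group levels use log2 CPM with a prior count of 2. The scripts were tested on simulated data. Alternatives were DESeq2 1.42.0, limma 3.58.1 on log2(RPKM + 0.1) and log2(RPKM + 1), other scalings and filters, a replicate block, and leaving libraries out. The genes, the marker lists and the tests were chosen with earlier results of these data known. All 10 genes were named, up to 2 genes of each other list by lowest unadjusted mRNA p, all measured partners, and the 3 genes most like Pdgfra and Gpr17. Outside this rule, Gabra6, Pcp2, Cbln1 and Cbln3 were named from their list, and Ermn, Ugt8a and Aspa for their order of libraries. Replicate numbers are not said to pair libraries, and the deviations of equally numbered WT and KO libraries had an r of −0.238 to 0.031 in mRNA and −0.247 to 0.075 in footprints. No 2 replicates agreed within sampling noise. Limits given for counts of 0 cover counting error only.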

Additional observations from a re-analysis of the deposited data

Results flagged for a closer look

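Of 40 groups of 4 libraries tested for a library far from the others, 2 were picked out. The cut-off picks about 1 in 20 groups by chance alone, which is the share picked out here. Gpr17 mRNA in WT4 was at 45.2 CPM, from 797 counts, while the other WT libraries were at 36.5 to 37.9 CPM. The gap made up 0.838 of the range of the group. Cspg4 footprints in WT1 were at 13.3 CPM, from 24 counts, while the other WT libraries were at 20.6 to 21.4 CPM, with a gap of 0.907 of the range.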

How the results depend on the processing

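None of the 10 genes passed the threshold under any alternative run, while calls over all genes varied. In mRNA they numbered 0 with edgeR, 75 with DESeq2, 24 with no filter and 0 to 2 when 1 library was left out. In footprints they numbered 0, 4 with DESeq2, 3 with protein-coding genes only and 86 with no filter. In translational efficiency they numbered 0, 144 with DESeq2, 3 with a replicate block and 0 to 4 with 1 library left out. DESeq2 gives no adjusted p for C1ql1 mRNA.

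Of the 10 genes, 1 had an unadjusted p under 0.05 in mRNA. There were 4 with DESeq2, 4 with upper quartile scaling, 3 with a replicate block, 2 without WT1 and WT2, 5 with no filter, and 0 (without KO3) to 3 (without KO2 or KO4) with 1 library left out. In footprints there were 0 to 1 with 1 library left out. In translational efficiency the main count of 1 became 2 with DESeq2, 0 without WT1 and WT2, 0 with filterByExpr and 0 to 2 with 1 library left out. The replicate block turned no sign among the 10 genes. The precursor median in mRNA was −0.016 without WT1 and WT2, and in footprints 0.056 with no filter, where more genes enter. The precursor minus premyelinating difference in mRNA was −0.23 with the median in place of the mean.

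Fitted values near 0 turned sign, and the cause was not tested. In mRNA, Ptprz1 was 0.106 and Tnr 0.066 without WT1 and WT2, and Tnr was 0.003 with no filter and 0.002 with limma. With 1 library left out, Ptprz1 ran from −0.16 to 0.017, Tnr from −0.073 to 0.056 and Cspg4 from −0.001 to 0.093. In footprints, Enpp6 was −0.018 with upper quartile scaling, −0.027 with no filter and −0.037 and −0.015 with limma, and Gpr17 was −0.13 without WT1 and WT2. With 1 library left out, Enpp6 ran from −0.188 to 0.134, Vcan from −0.026 to 0.397 and Ptprz1 from −0.112 to 0.212. In translational efficiency, Pdgfra was −0.185 without WT1 and WT2 and ran from −0.029 to 0.242 with 1 library left out, and Bcas1 from −0.38 to 0.013. Footprint depth in KO was at most 1.30 M counts and at most 0.847 M in protein-coding genes. Its part in the footprint values was not tested.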
